A study of Homo sapiens with 18 samples.

Results

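The TBX2 libraries were compared directly with the TBX3 libraries of the same series. The members were 6 of the 18 RNA-seq libraries, 3 labelled TBX2 and 3 labelled TBX3, and the comparison was made over the 15576 of 63677 genes whose count was above 5 in 10 or more of all 18 libraries. All libraries came from the human non-small cell lung cancer line NCI-H1299, in which T-box factors were overexpressed transiently from plasmids. The 3 TBX2 libraries came from cells given a plasmid for human TBX2 with a Flag tag in the pORF vector, and the 3 TBX3 libraries from cells given human TBX3 with an HA tag in the pCGN vector. Both were delivered by lipofection, so not every cell of a dish need carry the factor. The 6 controls were 3 libraries of cells given an empty vector (EV), whose backbone is not named, and 3 labelled Ctl, whose treatment is not named. The T-box factor, its tag and its vector changed together, so their effects cannot be told apart. The labels do not say whether replicates a, b and c were separate cultures, and p-values measure only the spread between these libraries.

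TBX2 and TBX3 are close relatives in the T-box family of transcription factors, which bind DNA through the T-box domain that gives the family its name. Both are known mainly as repressors, act in the developing lung mesenchyme, and silence genes of cyclin-dependent kinase inhibitors such as CDKN1A and CDKN2A. Comparing the pair addresses which transcripts differ between cells given factors with closely similar DNA-binding domains.

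Totals ran from 7365221 to 9146562 counts in the TBX2 libraries, from 8812923 to 10771902 in the TBX3 libraries and from 8853984 to 11743179 in the controls. Levels are given as CPM, in which counts are divided by the TMM-adjusted size of their library, and 3 counts were the smallest level taken as detected. A gene without a symbol, ENSG00000266658, held 19.6% to 40.5% of the counts in the TBX2 libraries and 10.7% to 47.4% in the TBX3 libraries. TBX3 replicate c, with 10.7%, and EV replicate c, with 12.4%, stood apart from the other fitted libraries by this share. Markers of lung epithelium were low or absent. Of 14 listed, 4 had no counts in the 12 libraries: the surfactant genes SFTPA1, SFTPA2 and SFTPD and the water channel AQP5. NKX2-1, the lineage factor of lung adenocarcinoma, reached at most 0.525 CPM. The highest of the list were AGER, at 2.26 to 4.44 CPM, and FOXA1, at 1.51 to 3.63 CPM.

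The gene on each plasmid was high only in its own libraries. TBX2 (ENSG00000121068, chr17:59477204-59486827, GRCh37) stood at 4095, 4832 and 4507 CPM in the TBX2 libraries and at 2.63, 4.84 and 4.16 CPM in the TBX3 libraries, where controls ran from 3.08 to 4.84 CPM. TBX3 (ENSG00000135111, chr12:115108060-115121980) stood at 17784, 25466 and 22608 CPM in the TBX3 libraries and at 2.19, 3.93 and 3.09 CPM in the TBX2 libraries, where controls ran from 1.37 to 3.34 CPM. The fitted differences were 10.16 ± 0.15 and -12.78 ± 0.21 on the log2 scale (TBX2 minus TBX3, ± SE), and the labels of all 6 libraries held. How much protein each plasmid made was not measured here, so a difference in dose and a difference between the factors cannot be told apart. TBX4, a further member of the subfamily, was counted at 1.96, 1.92 and 1.79 CPM with TBX2 and 0.919, 1.51 and 0.423 CPM with TBX3, while the controls held at most 0.0994 CPM. That difference of 1.20 ± 0.39 had an adjusted p of 0.0497, and it was not called without TBX2 replicate a (adjusted p = 0.115) or without TBX3 replicate c (adjusted p = 0.335). MGA, a T-box protein that also dimerizes with MAX, was 0.22 ± 0.06 lower (log2) with TBX2 (adjusted p = 0.0312), but missed the threshold without TBX3 replicate b (adjusted p = 0.128). Of the 9 T-box genes tested, TBX18 was also called lower (-0.23 ± 0.08, adjusted p = 0.0874), and it kept that call when TBX2 replicate a was left out but with none of the other 5 libraries left out (adjusted p = 0.158 to 0.217).

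At a false-discovery rate of 0.1, 1222 genes were higher with TBX2 than with TBX3, 7.85% of those tested, and 1163 were lower, 7.47%. Every adjusted p here comes from the quasi-likelihood test of edgeR with Benjamini-Hochberg adjustment over all tested genes. Together these calls were 15.3% of the genes, next to 33.8% for TBX2 against the 6 controls, 14.2% for TBX3 against the same controls and 0.173%, or 27 genes, for EV against Ctl. Of the calls, 225 were at least 2-fold higher with TBX2 and 38 at least 2-fold lower, and the median absolute log2 change was 0.48 for the higher and 0.33 for the lower genes, where the median SE of a gene was 0.14. The median level was 12.7 CPM for the higher and 38.2 CPM for the lower genes. All 3 TBX2 libraries lay above all 3 TBX3 libraries for 1108 of the higher calls, and below them for 1073 of the lower calls. Such a lack of overlap in either direction was found for 26.1% of all tested genes. The split between directions depended on the scaling: library totals computed without the most counted gene gave 1299 higher and 689 lower genes, and plain library totals gave 148 and 10. Without TBX3 replicate c and EV replicate c, 982 were higher and 949 lower, and with the share held by ENSG00000266658 added to the model, 1370 and 1315.

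**Figure D1:**
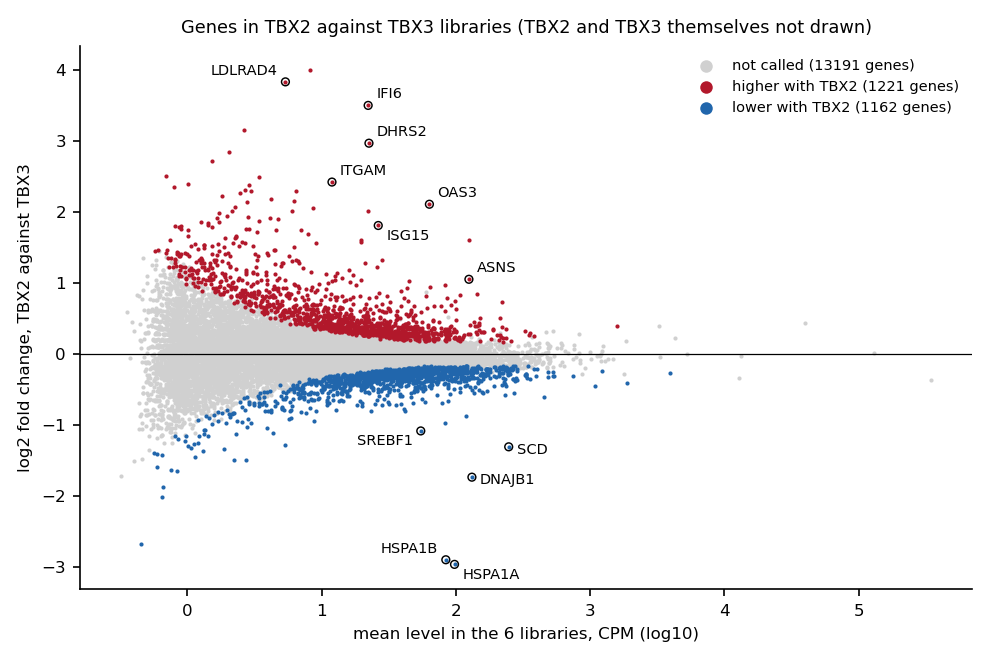
Log2 fold change of TBX2 against TBX3 (vertical axis) by the mean level in the 6 libraries in CPM (horizontal axis, log10), 1 point per tested gene without TBX2 and TBX3. Red points are called higher with TBX2 and blue points lower, at an adjusted p under 0.1; red points reach further from 0 than blue ones, except for HSPA1A and HSPA1B near -3.

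The clearest group on the TBX2 side was the interferon-stimulated genes, the antiviral programme that cells switch on when interferon receptors activate a complex that holds STAT2 and IRF9. Of the 46 listed, 32 were tested, and 27 were higher with TBX2, none lower. Their median log2 change was 1.05, beside -0.0037 over all tested genes. Against the 6 shared controls, the median was 1.22 with TBX2 and 0.13 with TBX3. With each library left out in turn, 23 to 27 members were called, and scaling by plain library totals left 17.

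Promoters are shown for 3 of these genes because their sequences carry the core of the element bound by that complex, GAAA followed by 2 bases of any kind and again GAAA. They are RefSeq sequences (GRCh38.p14), read 5′ to 3′ on the gene's strand up to the base before the annotated start, with matches on either strand in capitals. IFI6 is shown over chr1:27672193-27672362 (minus strand), ISG15 over chr1:1013367-1013496 (plus strand) and OAS3 over chr12:112938324-112938473 (plus strand).
IFI6: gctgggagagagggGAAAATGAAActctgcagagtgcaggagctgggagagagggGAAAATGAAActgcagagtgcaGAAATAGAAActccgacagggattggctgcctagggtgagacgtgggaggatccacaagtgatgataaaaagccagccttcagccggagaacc
ISG15: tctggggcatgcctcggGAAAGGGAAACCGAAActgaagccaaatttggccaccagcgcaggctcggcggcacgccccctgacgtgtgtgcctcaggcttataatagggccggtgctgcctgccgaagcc
OAS3: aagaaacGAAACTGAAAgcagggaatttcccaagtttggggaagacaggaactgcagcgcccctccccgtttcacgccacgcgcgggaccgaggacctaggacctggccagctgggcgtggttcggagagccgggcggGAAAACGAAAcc
IFI6 held 3 matches, ISG15 held 2 that overlap, and OAS3 held 2. In the RefSeq windows of 300 bases, of which 250 lie before the start, the core was present for 17 of the 26 interferon-stimulated genes with a window. It was present in 2.74% of the 10735 windows of tested genes, 5.94% of those of genes higher with TBX2 and 1.61% of those of genes lower. This motif was looked for after the gene group had been seen, and a match is a description of letters, not of binding.

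IFI6 (ENSG00000126709, chr1:27992575-27998723, GRCh37), which encodes a mitochondrial protein that restrains apoptosis and flavivirus replication, showed the largest change of the group. It stood at 40.0, 43.9 and 38.4 CPM with TBX2 and at 3.02, 3.93 and 3.80 CPM with TBX3. EV libraries held 4.35, 3.12 and 3.97 CPM and Ctl libraries 2.16, 3.38 and 3.48 CPM. The TBX2 libraries were thus apart from the other 9, whose values overlapped, and the difference of 3.50 ± 0.14 (log2) was 11.3-fold (adjusted p = 2.38e-15).

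OAS3, the sensor of double-stranded RNA that activates RNase L, stood at 103, 101 and 105 CPM with TBX2 and at 23.8, 24.6 and 23.5 CPM with TBX3. The difference was 2.11 ± 0.07 on the log2 scale (adjusted p = 3.08e-16), and the TBX3 libraries lay at the lower end of the controls, which ran from 23.7 to 29.0 CPM. IRF9, a DNA-binding part of that complex, stood at 4.37, 5.95 and 4.56 CPM with TBX2 and 1.18, 0.907 and 0.986 CPM with TBX3. It rose by 2.28 ± 0.29 (adjusted p = 1.07e-05), whereas STAT2, at 31.0, 36.3 and 28.1 CPM with TBX2 and 29.4, 25.4 and 27.4 CPM with TBX3, overlapped between groups (0.23 ± 0.10, adjusted p = 0.15). STAT2 was called higher without TBX2 replicate c (adjusted p = 0.0698).

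ISG15 and the IFIT genes differed also between the controls. ISG15, the ubiquitin-like modifier, stood at 42.7, 44.5 and 36.8 CPM with TBX2 and 9.85, 10.3 and 14.2 CPM with TBX3, and at 12.1, 10.3 and 12.9 CPM in EV against 5.01, 4.54 and 3.68 CPM in Ctl. The TBX3 libraries were therefore level with EV and above Ctl. TBX2 was 1.81 ± 0.12 above TBX3 (adjusted p = 1.45e-10), and EV was 1.43 above Ctl (adjusted p = 2.9e-05). IFIT1, which binds viral RNA lacking cap methylation, held 16.8, 20.4 and 16.1 CPM with TBX2 and 8.27, 7.56 and 8.31 CPM with TBX3. Its EV values of 6.72 to 6.88 CPM also lay above its Ctl values of 1.87 to 2.85 CPM. In all, 8 of the 32 tested members were higher in EV than in Ctl and none lower. The part that the vector or the amount of DNA had in the TBX2 values was not tested.

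The sensors and other effectors went the same way. DDX60 was 2.01 ± 0.10 higher with TBX2 on the log2 scale, the RNA helicase IFIH1 (MDA5) 1.23 ± 0.09 higher, the related sensor RIGI 0.59 ± 0.09 higher, and the kinase EIF2AK2 (PKR), a member of the translation factor list, 0.84 ± 0.07 higher. DDX60L, a paralog that may share reads with DDX60, was 2.05 ± 0.16 higher. The regulator IRF7 stood at 10.5, 14.2 and 7.48 CPM against 2.89, 3.48 and 3.45 CPM, a change of 1.74 ± 0.21 (adjusted p = 4.96e-06), and USP18, which removes ISG15 from its targets, rose to 9.05 ± 0.636 CPM from 3.31 ± 0.573 CPM (mean ± SD, n = 3 libraries each, a 2.82-fold change).

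**Figure D2:**
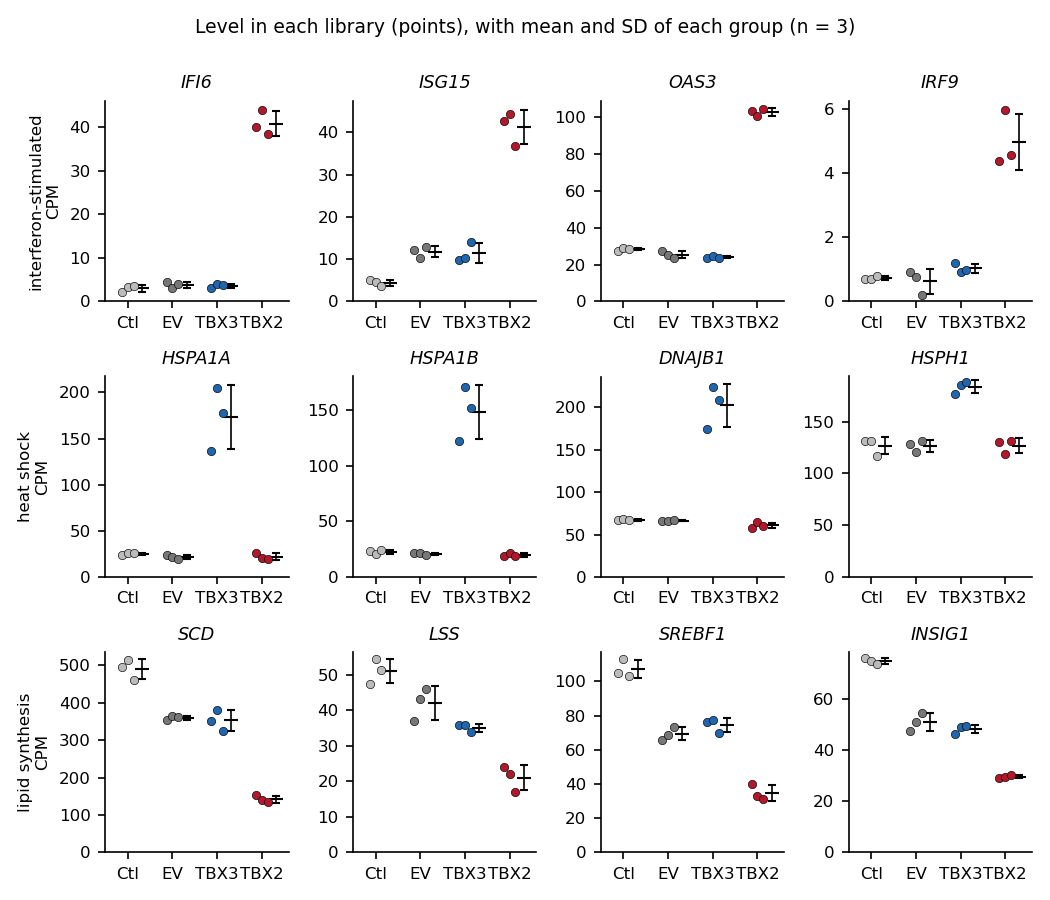
CPM of 12 genes (vertical axes, each from 0) in the 3 libraries of Ctl, EV, TBX3 and TBX2, with the mean and SD of each group beside the points. The TBX2 points stand apart for the interferon-stimulated genes in the top row and for the lipid synthesis genes in the bottom row, and the TBX3 points for the heat shock genes in the middle row.

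Of the gene lists, that of heat shock protein genes held the largest single changes on the TBX3 side, apart from TBX3 itself. These chaperones keep client proteins folded and are induced by the factor HSF1 when unfolded protein builds up. Of 25 listed, 22 were tested, and 13 were lower with TBX2 than with TBX3, none higher, with a median log2 change of -0.25. Against the shared controls the list's median was -0.08 with TBX2 and 0.15 with TBX3; 9 members were called higher with TBX3 than in the controls and none lower, next to 1 higher and 5 lower with TBX2. With each library left out in turn, 10 to 13 members were called, and plain library totals left 3.

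HSPA1A (ENSG00000204389, chr6:31783320-31785723, GRCh37) and HSPA1B (ENSG00000204388, chr6:31795515-31798031) encode the inducible HSP70. They are near-identical copies, so how reads were shared between them is uncertain. HSPA1A stood at 136, 205 and 178 CPM with TBX3 and at 26.5, 20.0 and 19.8 CPM with TBX2. The TBX2 libraries lay close to EV (19.6 to 23.8 CPM) and Ctl (24.0 to 26.0 CPM), and all TBX3 libraries lay far above. The level with TBX3 was 7.79-fold that with TBX2 (log2 -2.96 ± 0.12 for TBX2 minus TBX3, adjusted p = 1.04e-14). HSPA1B, at 122, 170 and 152 CPM with TBX3 and 18.8, 21.6 and 19.0 CPM with TBX2, differed by 7.45-fold (adjusted p = 7.68e-16).

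DNAJB1, the HSP40 partner that delivers clients to HSP70, stood at 174, 224 and 209 CPM with TBX3, at 57.9, 64.2 and 60.0 CPM with TBX2 and at 65.8 to 68.7 CPM in the controls. It was 3.33-fold higher with TBX3 (adjusted p = 6.01e-14). The nucleotide exchange factor HSPH1 was at 177, 186 and 189 CPM against 131, 118 and 132 CPM, a log2 change of -0.54 ± 0.07 (adjusted p = 1.03e-05). BAG3, the cochaperone of HSP70 in selective autophagy, fell from 39.8, 38.4 and 37.6 CPM with TBX3 to 27.2, 21.4 and 23.6 CPM with TBX2 (adjusted p = 4.58e-05), and HSPB1 was 0.58 ± 0.10 lower with TBX2. None of the 4 genes overlapped between the T-box groups, and with TBX2 none of them passed the threshold against the controls.

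The constitutive chaperone HSPA8, which has many processed pseudogenes, differed in another way. It stood at 1588, 1678 and 1530 CPM with TBX2, at 2113, 2180 and 2103 CPM with TBX3 and at 1876 to 2095 CPM in the controls, so that it was TBX2 that departed from the controls (-0.35 on the log2 scale, adjusted p = 0.00043). TBX3 did not pass against them (0.07, adjusted p = 0.59). HSP90AA1 was 0.29 ± 0.11 lower with TBX2 (adjusted p = 0.108) and passed the threshold without TBX2 replicate c (-0.47, adjusted p = 0.00476) and without TBX3 replicate c (-0.37, adjusted p = 0.0543). The gene of HSF1 itself differed by 0.06. A heat shock element, 3 units that alternate between GAA and TTC with 2 bases of any kind between them, on either strand, was found in the windows of 3 of the 20 heat shock genes with a window, HSPA8, CHORDC1 and DNAJA1, and in 0.289% of all windows. Its place is shown for HSPA8 over chr11:123062137-123062226 (GRCh38.p14, minus strand), again up to the start, because it is the most expressed member called.
HSPA8: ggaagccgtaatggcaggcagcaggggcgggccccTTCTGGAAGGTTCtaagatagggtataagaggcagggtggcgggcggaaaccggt

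Genes of sterol and fatty acid synthesis were lower with TBX2. The membrane-bound SREBP factors, encoded by SREBF1 and SREBF2, drive this pathway when cell sterol is low. Of 33 listed, 31 were tested, and 19 were lower with TBX2 than with TBX3, none higher, with a median log2 change of -0.37. Against the shared controls, 24 members were lower with TBX2 and 13 with TBX3, and none was higher with either, with medians of -0.50 and -0.21. With each library left out in turn, 17 to 19 members were called, and plain library totals left 2.

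SCD (ENSG00000099194, chr10:102106990-102124583, GRCh37), the desaturase that makes oleate, stood at 153, 140 and 134 CPM with TBX2 and at 351, 381 and 325 CPM with TBX3. The EV libraries held 354, 363 and 361 CPM and the Ctl libraries 494, 513 and 461 CPM, so TBX3 was level with EV, and TBX2 was below all other libraries. The difference between the T-box groups was -1.31 ± 0.07 (adjusted p = 7.6e-12). SREBF1 itself showed the same order, with 40.3, 33.2 and 31.1 CPM for TBX2, 76.3, 77.6 and 69.8 CPM for TBX3, 65.9 to 73.5 CPM for EV and 103 to 113 CPM for Ctl. It was 1.08 ± 0.09 lower with TBX2 than with TBX3 (adjusted p = 3.69e-09), and EV was 0.62 below Ctl (adjusted p = 4.6e-05).

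LSS, the lanosterol synthase, was at 23.9, 22.1 and 17.1 CPM with TBX2 and 35.7, 35.8 and 33.8 CPM with TBX3, a change of -0.71 ± 0.11 (adjusted p = 7.42e-05). INSIG1, the sterol sensor that holds SREBP in the endoplasmic reticulum, was at 29.1, 29.6 and 30.3 CPM against 46.5, 49.1 and 49.5 CPM (-0.71 ± 0.08, adjusted p = 8.01e-07). Neither gene overlapped between the groups. Enzymes of both branches were also lower with TBX2: HMGCS1 fell by 0.61 and FASN by 0.58 on the log2 scale. ACLY, which makes cytosolic acetyl-CoA, stood at 114, 109 and 103 CPM with TBX2 and 116, 108 and 114 CPM with TBX3 (-0.05 ± 0.07, adjusted p = 0.716). It was lower than the controls with both factors, by 0.39 with TBX2 and by 0.35 with TBX3. The letters TCACNCCAC were in 1.08% of all windows and in 1 of 25 of this list, that of SREBF2.

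**Figure D3:**
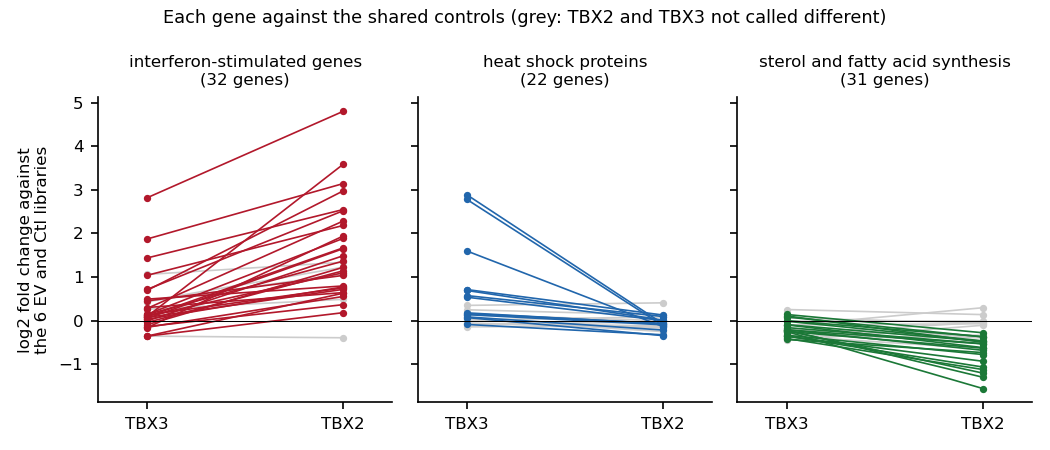
Log2 fold change of each tested gene of 3 lists against the 6 shared EV and Ctl libraries, with TBX3 on the left and TBX2 on the right of each panel, 1 line per gene. Lines for 31 of the 32 interferon-stimulated genes rise to the right, with medians of 0.13 and 1.22; the lines of HSPA1A, HSPA1B and DNAJB1 fall from TBX3 to near 0; and those of 26 of the 31 lipid genes fall from TBX3 to TBX2.

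The factor ATF4 switches on the genes of the integrated stress response when translation is held back. Of 19 tested, 9 were higher with TBX2 and 1 lower, with a median of 0.31. The count was 6 higher and 3 lower without TBX2 replicate b, and 6 higher and 1 lower without TBX3 replicate a; plain library totals left 1 higher. ASNS, the asparagine synthetase, led the group with 172, 161 and 174 CPM for TBX2, 75.1, 73.3 and 94.1 CPM for TBX3 and 67.3 to 89.4 CPM in the controls (1.05 ± 0.08, adjusted p = 1.1e-09). Its pseudogene ASNSP1 was also higher, by 2.16, and may take reads of ASNS. SLC3A2, the heavy chain of amino acid exchangers, was at 121, 131 and 116 CPM against 70.9, 69.4 and 79.1 CPM, and PHGDH, which starts serine synthesis, at 36.4, 29.2 and 32.5 CPM against 21.7, 18.6 and 22.7 CPM. Both were above TBX3 in all TBX2 libraries, by 0.74 ± 0.07 and 0.62 ± 0.10.

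TRIB3 and DDIT3 (CHOP), which act in stress-induced death, were called higher than the controls with both factors, and higher in EV than in Ctl. TRIB3 stood at 27.3, 29.1 and 23.4 CPM with TBX2, 15.9, 16.2 and 17.3 CPM with TBX3, 11.3 to 11.6 CPM in EV and 6.76 to 7.38 CPM in Ctl. DDIT3 was at 34.5, 45.3 and 35.0 CPM with TBX2 and at 24.2, 32.4 and 31.4 CPM with TBX3, a difference of 0.39 ± 0.11 (adjusted p = 0.019), with 11.8 to 13.3 CPM in EV and 6.29 to 6.76 CPM in Ctl. CHAC1, which degrades glutathione, went the other way by 0.55 ± 0.17 (adjusted p = 0.0428), and was not called without TBX2 replicate a or c or without TBX3 replicate b or c (adjusted p = 0.107 to 0.157). ATF4 mRNA, whose product is controlled mainly in translation, overlapped between the groups (-0.18 ± 0.09, adjusted p = 0.229), although it passed as lower without TBX2 replicate b (-0.31, adjusted p = 0.022). The C/EBP-ATF letters TGATGNAA were found in 1.68% of all windows, 3.70% of those of genes higher with TBX2 and 0.642% of those of genes lower, and in 3 of 17 of this list, ASNS, SLC3A2 and CHAC1. The ASNS match is shown over chr7:97872409-97872498 (GRCh38.p14, minus strand).
ASNS: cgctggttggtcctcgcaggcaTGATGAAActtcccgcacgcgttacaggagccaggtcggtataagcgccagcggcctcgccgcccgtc

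The unfolded protein response raises chaperones and other genes of the endoplasmic reticulum. Of its 17 listed genes, 8 were higher with TBX2 and none lower, with a median of 0.26; 5 were higher without TBX2 replicate c and 0 with plain library totals. HSPA5 (BiP), its main chaperone, varied among the TBX2 libraries, at 282, 190 and 357 CPM, and stood at 171, 168 and 159 CPM with TBX3 (0.73 ± 0.15, adjusted p = 0.00163). CRELD2 was higher by 0.69 ± 0.13. Of the 20 NRF2 targets tested, 4 were higher (20%) and 1 lower (5%), beside 7.85% and 7.47% over all tested genes. Without TBX2 replicate a or b or any 1 of the TBX3 replicates, 3 to 6 were higher and none lower. Higher with TBX2 were SLC7A11, the cystine importer and partner of SLC3A2, at 55.9, 58.0 and 56.0 CPM against 29.2, 26.0 and 33.0 CPM (0.93 ± 0.10, adjusted p = 4.18e-07), HMOX1 (0.76 ± 0.11) and GCLM (0.62 ± 0.08). Of 21 NF-kappaB targets, 8 were higher and none lower, or 1 lower without TBX2 replicate b or TBX3 replicate c. They were led by the chemokine CXCL2 at 52.7, 38.5 and 62.3 CPM against 25.6, 27.5 and 28.5 CPM (0.88 ± 0.12), while NFKB1 itself differed by 0.07.

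**Figure D4:**
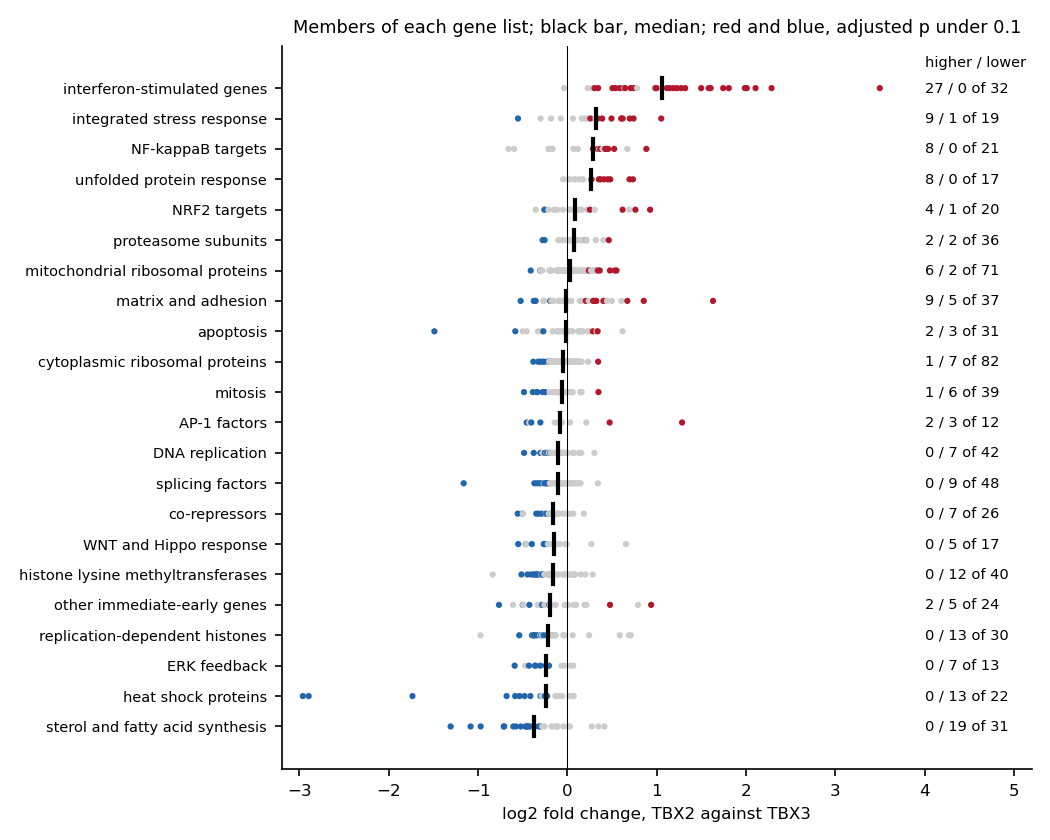
Log2 fold change of TBX2 against TBX3 (horizontal axis) for each tested member of 22 gene lists, 1 row per list, with the median as a black bar and the numbers called higher and lower at the right. The interferon-stimulated genes lie furthest to the right with a median of 1.05, and the sterol and fatty acid genes furthest to the left with a median of -0.37.

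Immediate-early genes, which growth factor and stress signals switch on within minutes, were called in both directions, and most of those listed were not called. EGR1 stood at 75.8, 72.5 and 106 CPM with TBX2 and at 39.5, 55.3 and 38.6 CPM with TBX3, both above the controls, which ran from 5.16 to 12.7 CPM. The difference between the T-box groups was 0.94 ± 0.14 (adjusted p = 0.000116). FOSB was at 10.2, 9.78 and 9.11 CPM against 3.15, 3.63 and 4.72 CPM (1.28 ± 0.17, adjusted p = 1.9e-05), and KLF10 was 0.48 ± 0.07 higher with TBX2. JUN went the other way, at 31.0, 26.2 and 27.5 CPM with TBX2 and 35.7, 45.8 and 36.0 CPM with TBX3 (-0.46 ± 0.11, adjusted p = 0.00802), as did DUSP1 (-0.50 ± 0.13). Over the AP-1 list, 2 of 12 were higher (16.7%) and 3 lower (25%), with 1 higher without TBX2 replicate b or TBX3 replicate a. Over the other immediate-early genes, 2 of 24 were higher (8.33%) and 5 lower (20.8%), with 3 lower without TBX3 replicate b. The shares over all tested genes were 7.85% higher and 7.47% lower. Plain library totals left 1 higher in each list and none lower.

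Negative feedback genes of the ERK pathway were lower with TBX2 for 7 of 13 tested, and none was higher, with a median of -0.24. The count was 4 without TBX2 replicate b, 4 without any 1 of the TBX3 replicates and 0 with plain library totals. DUSP5, a nuclear ERK phosphatase, was called lower than the controls with TBX2 and higher with TBX3, at 20.5, 23.9 and 20.0 CPM with TBX2 and 29.5, 31.6 and 35.6 CPM with TBX3, with controls from 22.7 to 30.9 CPM. SPRY4, an inhibitor of the pathway, stood at 105, 104 and 103 CPM with TBX3, 85.0, 78.2 and 79.1 CPM with TBX2 and 68.4 to 83.0 CPM in the controls, and was 0.36 ± 0.07 lower with TBX2 (adjusted p = 0.000684). SPRY2 was lower by 0.43 ± 0.09.

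Known targets of the pair and cell cycle regulators were listed separately. Of the 12 genes listed as reported targets of TBX2 or TBX3, 5 were tested. CDKN2A, at 25.4, 21.5 and 17.6 CPM against 28.0, 27.7 and 24.1 CPM, did not pass (adjusted p = 0.157), but did without TBX2 replicate a (adjusted p = 0.0548). CDKN1A differed by 0.18 and was not called. Of 14 cell cycle regulators tested, 1 was higher (7.14%), 2 were lower (14.3%) and 11 were not called. Over all tested genes, 7.85% were higher and 7.47% lower. CDKN2C was 0.47 ± 0.09 lower with TBX2 and CDK6 0.31 ± 0.06 lower. The cyclin CCND2 was 1.56 ± 0.30 higher, at 2.76, 3.23 and 3.58 CPM against 1.44, 1.21 and 0.775 CPM.

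In the DNA replication list, 7 of 42 were lower with TBX2 (16.7%) and none higher, with a median of -0.10. Without TBX2 replicate a, 4 were lower and 1 higher. In the mitosis list, 6 of 39 were lower (15.4%) and 1 higher (2.56%), with a median of -0.06. Over all tested genes, 7.47% were lower and 7.85% higher. With plain library totals, no gene of either list was called. E2F1, which drives entry into S phase, was at 21.1, 27.6 and 23.6 CPM against 32.6, 35.7 and 33.7 CPM, and the kinesin KIF20A at 85.5, 97.9 and 81.8 CPM against 129, 120 and 124 CPM. Replication-dependent histone genes, which are read in S phase, were lower for 13 of 30, with a median of -0.22. That count was 7 without TBX3 replicate c, where 2 were higher, 8 without TBX2 replicate a or c, and 0 with plain library totals. H3C12 stood at 20.1, 15.9 and 18.5 CPM with TBX2, 26.8, 22.5 and 28.5 CPM with TBX3 and 34.0 to 39.9 CPM in the controls, a graded order in which no groups overlapped (-0.54 ± 0.11 between the T-box groups). How polyadenylated and other RNA were selected is not given, and its part in these histone counts was not tested.

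Among chromatin genes, 12 of 40 histone lysine methyltransferases were lower with TBX2 and none higher. The count was 7 without TBX3 replicate a and 0 with plain library totals. KMT2C stood at 135, 116 and 123 CPM with TBX2 and 158, 178 and 162 CPM with TBX3, against 116 to 128 CPM in the controls, and KMT2E, at 70.3, 73.1 and 77.3 CPM against 99.7, 118 and 85.0 CPM, was likewise called higher than the controls with TBX3 (0.56 on the log2 scale) and not with TBX2. Of the 26 co-repressors through which T-box and other repressors act, 7 were lower and none higher, among them HDAC5 (-0.56 ± 0.13) and TLE3 (-0.50 ± 0.13). Plain library totals left none of the co-repressors called. Of 16 histone lysine demethylases tested, 1 was higher (6.25%), 2 were lower (12.5%) and 13 were not called, with a median of 0.05. Over all tested genes, 7.85% were higher and 7.47% lower. The demethylase KDM7A was higher with TBX2, at 16.2, 12.8 and 16.4 CPM against 9.32, 9.52 and 9.30 CPM, and KDM6A lower by 0.39 ± 0.09. These are differences between the T-box groups, and KDM7A was above all controls (3.24 to 5.49 CPM) in both.

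Genes of surface and matrix proteins moved in both directions. Of the 37 tested, 9 were higher (24.3%) and 5 lower (13.5%), beside 7.85% and 7.47% over all tested genes. The count of 9 was 5 without TBX2 replicate b or without TBX3 replicate a. Plain library totals left 1 higher and none lower. The collagens COL12A1 (0.67 ± 0.07) and COL5A2 (1.63 ± 0.27) were higher with TBX2 and the integrin ITGA3 lower (-0.52 ± 0.08). The receptor tyrosine kinase AXL stood at 304, 303 and 285 CPM with TBX2, 396, 350 and 378 CPM with TBX3 and 508 to 577 CPM in the controls, lower with both and lowest with TBX2 (-0.33 ± 0.07 between them). EGFR was 0.29 ± 0.06 lower with TBX2. Of the Hippo pathway genes, AMOTL2 and the kinase LATS2 were lower with TBX2, by 0.55 ± 0.08 and 0.47 ± 0.09. Of 31 apoptosis genes, 2 were higher (6.45%) and 3 lower (9.68%), shares near the 7.85% and 7.47% over all tested genes. The largest change in that list was that of BMF, a BH3-only activator of cell death, at 1.27, 1.61 and 1.30 CPM with TBX2 and 4.20, 4.08 and 3.80 CPM with TBX3 (-1.49 ± 0.24, adjusted p = 0.000199), with controls from 1.41 to 2.65 CPM. The related BCL2L11 was 0.58 ± 0.15 lower, and was not called without TBX2 replicate b (adjusted p = 0.116).

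The largest changes outside these lists were those of genes with low levels in the controls. LDLRAD4, an inhibitor of TGF-beta signalling, was at 9.44, 10.9 and 9.92 CPM with TBX2 and 0.788, 0.302 and 0.845 CPM with TBX3, with 0.298 to 1.15 CPM in the controls, a 14.2-fold difference (3.83 ± 0.25, adjusted p = 1.45e-10). In TBX3 replicate b its level lay below the 3 counts taken as detected, so the size of this fold is uncertain. DHRS2, a short-chain dehydrogenase, was at 35.4, 45.8 and 38.2 CPM against 6.30, 4.38 and 4.79 CPM (adjusted p = 2.37e-13). ITGAM, the integrin CD11b of myeloid cells, was at 18.9, 22.3 and 18.7 CPM against 3.68, 4.69 and 3.31 CPM (adjusted p = 1.65e-11). For all 3, the TBX3 libraries lay within or next to the range of the controls. ITGAM is in the leukocyte marker list, whose sum was 19.0 to 23.6 CPM with TBX2, 4.37 to 7.86 CPM with TBX3 and 4.13 to 5.25 CPM in the controls, and in the TBX2 libraries mostly ITGAM. PTPRC, the pan-leukocyte marker CD45, reached at most 0.356 CPM in the 12 libraries. Other such genes higher with TBX2 were PATL2 (2.49 ± 0.25), VWA5A (2.29 ± 0.21), TNXB (2.18 ± 0.24) and GRIN2B (2.02 ± 0.18). On the other side, GDA, the guanine deaminase, was at 3.68, 2.22 and 3.58 CPM with TBX2 and 8.27, 6.95 and 7.40 CPM with TBX3 (-1.29 ± 0.19), and RAB40C was 1.05 ± 0.20 lower.

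Of the 15576 tested genes, 34 with a symbol were called between TBX2 and TBX3 and also passed against the shared controls with both, in opposite directions. ZFP82 stood at 29.9, 31.1 and 30.3 CPM with TBX2, 57.0, 47.2 and 54.6 CPM with TBX3 and 37.4 to 47.0 CPM in the controls (-0.80 ± 0.08 between the T-box groups, adjusted p = 1.82e-07), and ZNF45 and ZNF566 showed the same order, with differences of -0.69 ± 0.08 and -0.72 ± 0.10. GPRC5A, a lung tumour suppressor gene, was at 23.0, 22.4 and 22.6 CPM with TBX2, 36.6, 34.9 and 34.5 CPM with TBX3 and 24.5 to 33.1 CPM in the controls. The complement gene C5 was called higher with TBX2 and lower with TBX3, at 7.14, 9.28 and 8.62 CPM against 3.94, 3.78 and 4.65 CPM, with controls from 4.46 to 7.38 CPM.

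Chromosome 19 as a whole held 157 genes lower with TBX2, 14.6% of its 1079 tested genes beside 7.47% over all, and 56 higher, 5.19%. Among the 222 ZNF genes tested there, 42 were lower and 21 higher, and among the 207 on other chromosomes, 17 were lower and 27 higher. The count of 42 was 24 without TBX3 replicate c and the count of 21 was 13 without TBX3 replicate a, and the count of 17 was 11 without TBX3 replicate b. Plain library totals left none of the ZNF genes lower. Transcripts of the genes lower with TBX2 were longer than those of the genes higher, with medians of 4690 and 3779 bases beside 3504 over all. The GC content was 46.8% and 45.0% beside 46.9%. Of the genes higher with TBX2, 7.20% were lncRNA genes, and of those lower, 4.04%, beside 10.2% of the tested genes. The T-box core AGGTGT, on either strand, was in 9.52% of the windows of higher genes, 8.99% of those of lower genes and 8.69% of all. The AP-1 letters TGANTCA were in 5.04%, 3.85% and 4.37%, the CRE TGACGTCA in 4.59%, 3.75% and 3.31%, and the CArG box in 1.34%, 1.71% and 1.02%, in the same order.

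The counts of cytoplasmic ribosomal protein and nuclear respiratory chain genes moved with single libraries. Their shares called lower were near the 7.47% of all tested genes, and their shares called higher lay below the 7.85% of all. Of 82 cytoplasmic ribosomal protein genes, which share reads with many pseudogenes, 7 were lower (8.54%) and 1 higher (1.22%) with TBX2. However, 19 were lower without TBX2 replicate b and 3 without TBX2 replicate a. Of 79 nuclear respiratory chain genes, 5 were lower (6.33%) and 3 higher (3.80%), but 10 were higher without TBX3 replicate c and 8 lower without TBX2 replicate b.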

How the data were processed

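RNA-seq counts of NCI-H1299 libraries were used, with 3 per group for TBX2, TBX3, EV and Ctl. Per the study's methods, the authors mapped read pairs to GRCh37 (STAR 2.3.0) and deposited raw counts per Ensembl gene, not normalized, from featureCounts run with its defaults, which ignore strand. Overlapping and antisense genes can therefore not be told apart, and how RNA was selected is not given in the sources used here. Groups and replicate letters came from the sample labels. The library whose number names TBX4 but whose label ends in TBX5 was assigned to no group and used only for the filter on low counts. The TBX4 and TBX5 libraries were used for that filter and in 1 alternative.

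Genes whose count was above 5 in 10 or more of all 18 libraries were fitted with edgeR 4.0.16 in R 4.3.3 (TMM scaling, quasi-likelihood F test, Benjamini-Hochberg adjustment, threshold 0.1), with 1 coefficient for each of the 4 groups in 12 libraries. The contrast was TBX2 minus TBX3; each was also set against the mean of EV and Ctl in the same fit, so both share these controls. SE was obtained by dividing the size of each log2 change by the root of its F statistic. The floor of 3 counts covers counting error only, and each SE or SD includes the spread between libraries. Symbols from GENCODE were found for 14293 tested genes (91.8%), and gene coordinates are GRCh37. The study's own test was DESeq2 with each factor against controls; here DESeq2 1.42.0 was an alternative. On simulated data with 200 of 15576 genes changed, 96% of those changed by 1 and 72% of those changed by 0.5 on the log2 scale were recovered, with 11.58% false calls. The changed genes were drawn only from those above a minimum mean level, so recovery at the lowest levels was not measured.

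The comparison and the gene lists were chosen with earlier results of these data known. The genes named by rule were tested T-box genes, the 12 largest changes in each direction with at least 5 CPM in the higher group and no overlap between the groups, the 8 smallest p in each direction, up to 4 called members of each list in each direction with its most expressed uncalled member, and 8 genes called in opposite directions against the controls. Other list members named, and the interferon, heat shock, sterol and C/EBP-ATF letters searched, were chosen after their values were seen. Promoter windows are from RefSeq (GRCh38.p14), matched by symbol for 10735 tested genes. The alternatives are given with their effects at the end. Some list members are not reported here.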

Additional observations from a re-analysis of the deposited data

Results flagged for a closer look

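The library whose label carries the number of the TBX4 group and ends in TBX5, which entered no comparison, held 85197 counts of TBX4 and 1 count of TBX5. The 6 EV and Ctl libraries held at most 1 count of TBX4. It drew attention as a signal, above the level of the controls, in a library that the comparison of TBX2 with TBX3 does not use.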

How the results depend on the processing

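The 1222 higher and 1163 lower genes became 750 and 775 with DESeq2, which gave an adjusted p for 13462 genes, 148 and 10 with plain library totals (93.7% of calls higher), 1299 and 689 with totals computed without the most counted gene (65.3% higher), 861 and 788 at an adjusted p under 0.05, and 225 and 38 when the change also had to reach 1 on the log2 scale. Leaving out each of the 6 libraries in turn gave 887 to 1030 higher and 832 to 1086 lower genes. With 2 choices made after seeing the data, 982 and 949 were called without TBX3 replicate c and EV replicate c, and 1191 and 1069 from the TBX2, TBX3 and EV libraries alone. The cause of these shifts was not tested, apart from the stricter thresholds. Of the 175 named genes that were called, none reversed in any alternative run, and 34 with plain library totals, 151 with DESeq2 and 147 to 158 with 1 library left out stayed past the threshold. The replicate block gave 1186 higher and 1095 lower genes; the letters showed no pairing, since deviations of TBX2 and TBX3 libraries with the same letter correlated at 0.036 for a, 0.023 for b and -0.046 for c.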
